A study of Homo sapiens with 14 samples.

Results

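The response of A549 cells to AMG900 was compared, gene by gene, with the response of H1792 cells. AMG900 is a small molecule that inhibits the aurora kinases, and A549 and H1792 are established human lung adenocarcinoma lines. The comparison is the change under AMG900 in H1792 minus the change under AMG900 in A549, so that a gene has a value of 0 when both lines respond by the same fold. All 14 of the 14 libraries of the series entered: 4 DMSO and 4 AMG900 libraries of A549 and 3 DMSO and 3 AMG900 libraries of H1792. Cells were seeded in dishes, treated on the next day with 0.1 µM AMG900 or with its solvent DMSO, and collected 48 h later. A549 was grown in DMEM and H1792 in RPMI 1640, so line and medium cannot be told apart, and each line stands for itself alone and not for a class of tumours. The study used both lines as invasive lung cancer cells and asked which genes move when aurora kinases are inhibited. The labels speak of 3 replicates per treatment, while A549 has 4 libraries, and nothing says that they came from separate passages, so p-values measure the spread between these libraries. Of 26732 genes listed for both lines, 14769 had enough counts to be tested, and these are the members described here.

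Aurora kinase A acts at centrosomes and the spindle poles, where the microtubule-associated protein TPX2 activates it. Aurora kinase B is the enzyme of the chromosomal passenger complex, which corrects faulty attachments of chromosomes to the spindle and is needed for cytokinesis. Cells in which these kinases are inhibited can leave mitosis without dividing and become polyploid, and whether they then go on replicating DNA or stop in a tetraploid G1 state depends in many cell types on the p53 pathway. Genes of S phase are under the control of E2F factors, and genes of G2 and mitosis under that of MuvB complexes with B-MYB and FOXM1, so that a cell population that leaves the cycle lowers both sets of transcripts.

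Total counts per library ran from 4248944 to 18940099 (median 13690759) in A549 and from 42760874 to 79902934 (median 55061528) in H1792, so that depth and line cannot be told apart either. Replicates of A549 varied more, with a biological coefficient of variation of 12.9% against 9.49% for H1792. One library stood apart, A549 DMSO replicate 1, the shallowest of all, and the total of called genes and the class counts are also given without it. As a check of the labels, 6 of 8 epithelial markers reached 1 CPM (the read count scaled to the size of its library) in A549 and 7 of 8 in H1792, among them *KRT7*, *KRT8*, *KRT18* and *KRT19* in both. *CDH1* did not reach it in H1792, and *EPCAM* and *CLDN7* did not in A549. Markers of other cells were not absent: *PDGFRA*, *PDGFRB*, *DCN*, *LUM*, *PECAM1*, *VWF* and *HBA1* reached 1 CPM in H1792, and *VWF* in A549. The 6 fibroblast and muscle markers summed to 55.8 to 64 CPM with DMSO in H1792, against 0.917 to 1.51 CPM in A549. Of 24 markers of leukocytes, endothelium, fibroblasts, muscle and red cells, 13 were tested, and 1 of these (*MYH11*, near the lower limit of detection) differed in response between the lines. The leukocyte markers *CD3D*, *CD3E* and *NKG7* were at 0 in every A549 library, but the summed level of the 9 leukocyte markers, carried by *CD14* and *CD68*, was higher with AMG900 in both lines, at 154 to 174 CPM against 63.8 to 92.4 CPM in A549 and 166 to 189 CPM against 98.6 to 120 CPM in H1792. In these bulk samples a change in the share of cells of a kind and a change of RNA per cell cannot be told apart.

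The lines differed in response for 2190 of the 14769 genes (14.8%, edgeR quasi-likelihood test of the interaction, FDR threshold 0.01). For 810 genes (5.48%) the value of H1792 was the higher one, and for 1380 (9.34%) the lower one. Within A549, 3276 genes (22.2%) were upregulated and 2328 (15.8%) downregulated, and within H1792 the numbers were 1626 (11%) and 2067 (14%). Among the 2190 genes, 1264 (8.56% of genes tested) passed the test in A549 only, 423 (2.86%) in H1792 only, 132 (0.894%) in both lines in opposite directions, and 297 (2.01%) in both lines in the same direction but by unequal folds. The remaining 74 passed in neither line on its own. The A549-only genes divided into 782 upregulated and 482 downregulated ones. Most of them were measured well in H1792: 1225 reached 1 CPM there, and for 1033 the 95% confidence interval of the H1792 change also lay within 1.5-fold either way. The H1792-only genes divided into 129 upregulated and 294 downregulated ones, with 405 at 1 CPM or more in A549 and 268 also within 1.5-fold there. Of the 297 genes that moved in the same direction, 259 had the larger change in A549.

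The balance between higher and lower calls depended on how the lines were scaled to each other. The median of the difference over all genes tested was -0.10 on the log2 scale with TMM factors over all libraries, against -0.02 with the size factors of DESeq2, -0.01 with total counts and -0.02 with TMM factors within each line. The split of 810 higher against 1380 lower became 1016 against 1037, 999 against 1052 and 1026 against 1046 under these scalings, and 1416 against 1450 with DESeq2. The direction of the difference of each gene named below from the rule was the same under every one of the 27 alternatives that gave a value. These genes were chosen for a called difference, and some alternatives reuse the same difference, so this stability was partly fixed in advance. List medians can be read against those of all genes tested, 0.083 in A549, 0.008 in H1792 and -0.10 for the difference. Counts of called members can be read against the 14.8% of all genes called, 5.48% higher and 9.34% lower in H1792. Leaving out A549 DMSO replicate 1 raised the number of called genes to 3086, with 1575 in A549 only, 695 in H1792 only, 243 opposite and 499 in the same direction, and leaving out H1792 AMG900 replicate 1 lowered it to 1608.

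**Figure D1:**
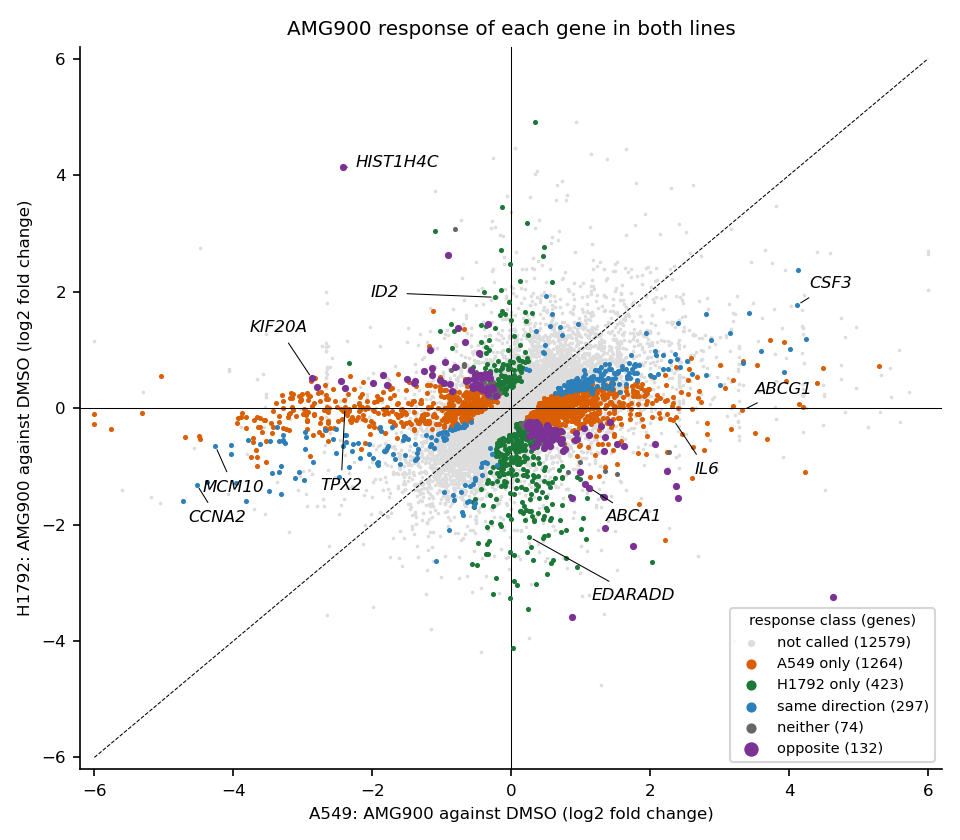
Log2 fold change under AMG900 in A549 (x axis) and H1792 (y axis) for the genes tested, 1 point a gene, coloured by response class; the dashed line marks equal change, and values beyond 6 are drawn at the edge. The 1264 A549-only genes lie along the x axis, the 423 H1792-only genes along the y axis, and the 132 opposite genes in the upper left and lower right, with *HIST1H4C* the highest of the opposite genes.

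Of the 39 gene lists examined, that of mitosis had the largest median difference between the lines. *AURKB* had 126, 102, 108 and 111 CPM in the DMSO libraries of A549 and 14.6, 10.9, 11.8 and 13.7 CPM with AMG900, while in H1792 it had 154, 133 and 143 CPM with DMSO and 173, 169 and 166 CPM with AMG900. The A549 groups lay far apart with AMG900 lower, and the H1792 groups did not overlap either but lay close, with AMG900 higher. Its log2 fold change was -3.13 ± 0.09 (SE) in A549 and 0.24 ± 0.09 in H1792, a difference of 3.37 ± 0.13 (edgeR adjusted p = 7.1e-14), and the H1792 change alone did not pass (adjusted p = 0.037, edgeR). *AURKB* thus counted as A549 only, as it did in 10 of 13 alternatives that leave out no library. With DESeq2, with per-line fits and at FDR 0.05 it counted as opposite. *TPX2* (chr20:30327074-30389608, GRCh37) went from 252, 244, 231 and 247 CPM to 49, 43.1, 46.4 and 46.9 CPM in A549 and stood at 260, 253 and 258 CPM with DMSO and 255, 262 and 263 CPM with AMG900 in H1792. Its change in H1792, 0.02 ± 0.06, had a 95% interval of -0.11 to 0.15, against -2.39 ± 0.06 in A549. *AURKA* changed by -2.41 ± 0.08 in A549 and by 0.14 ± 0.08 in H1792 (difference 2.56 ± 0.11, edgeR adjusted p = 5.0e-13).

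Among 108 genes of the mitotic spindle and chromosome segregation, 87 differed between the lines, all 87 with the higher value in H1792, against the 5.48% of all genes that were called in that direction. In A549, 103 of them were downregulated and 1 upregulated, and in H1792, 29 were downregulated and 5 upregulated. Over the list, the medians were -2.79 (A549) and -0.17 (H1792) on the log2 scale, and the median difference was 2.40. The mean over the members, taken relative to the DMSO libraries of the same line, lay between -2.51 and -2.47 in the 4 A549 libraries with AMG900 and between -0.31 and -0.27 in the 3 of H1792, while DMSO libraries spread from -0.05 to 0.07 in A549 and from -0.08 to 0.07 in H1792. The H1792 decrease was thus outside its own DMSO range, but small. By role, 11 of 13 mitotic kinases and 22 of 27 members of the passenger complex and the kinetochore (the structure that binds chromosomes to microtubules) were called, with medians of -3.15 and -2.89 in A549 against -0.20 and -0.15 in H1792. For kinesins and spindle proteins 22 of 26 were called (medians -2.85 and -0.13). The 7 cytokinesis genes were the ones of this list with the lowest median in H1792, -0.79 against -3.32 in A549, and 5 of them were downregulated in H1792. The 17 condensin and cohesin genes, which compact chromosomes and hold sister chromatids together, were all downregulated in A549 (median -1.99), and 9 of them also in H1792 (median -0.48). All 8 proliferation marks were called, among them *MKI67*, whose product coats mitotic chromosomes and is a common label of cycling cells. *MKI67* had 223, 365, 352 and 347 CPM with DMSO and 32.7, 32.9, 31.4 and 27.3 CPM with AMG900 in A549, and 222, 303 and 271 CPM against 291, 277 and 273 CPM in H1792, where the groups overlapped. *KIF18B*, a kinesin that shortens astral microtubules, fell by 3.82 ± 0.13 on the log2 scale in A549 and stood at -0.16 ± 0.10 in H1792. *CKAP2L*, *ASPM* and *SPC25* had differences of 3.79 ± 0.26, 3.77 ± 0.42 and 3.74 ± 0.35 (edgeR adjusted p of 2.0e-10, 9.3e-08 and 1.2e-08). With AMG900 in A549, *ASPM* and *SPC25* had 2 to 5 and 4 to 7 counts a library, so the size of their differences is uncertain.

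**Figure D2:**
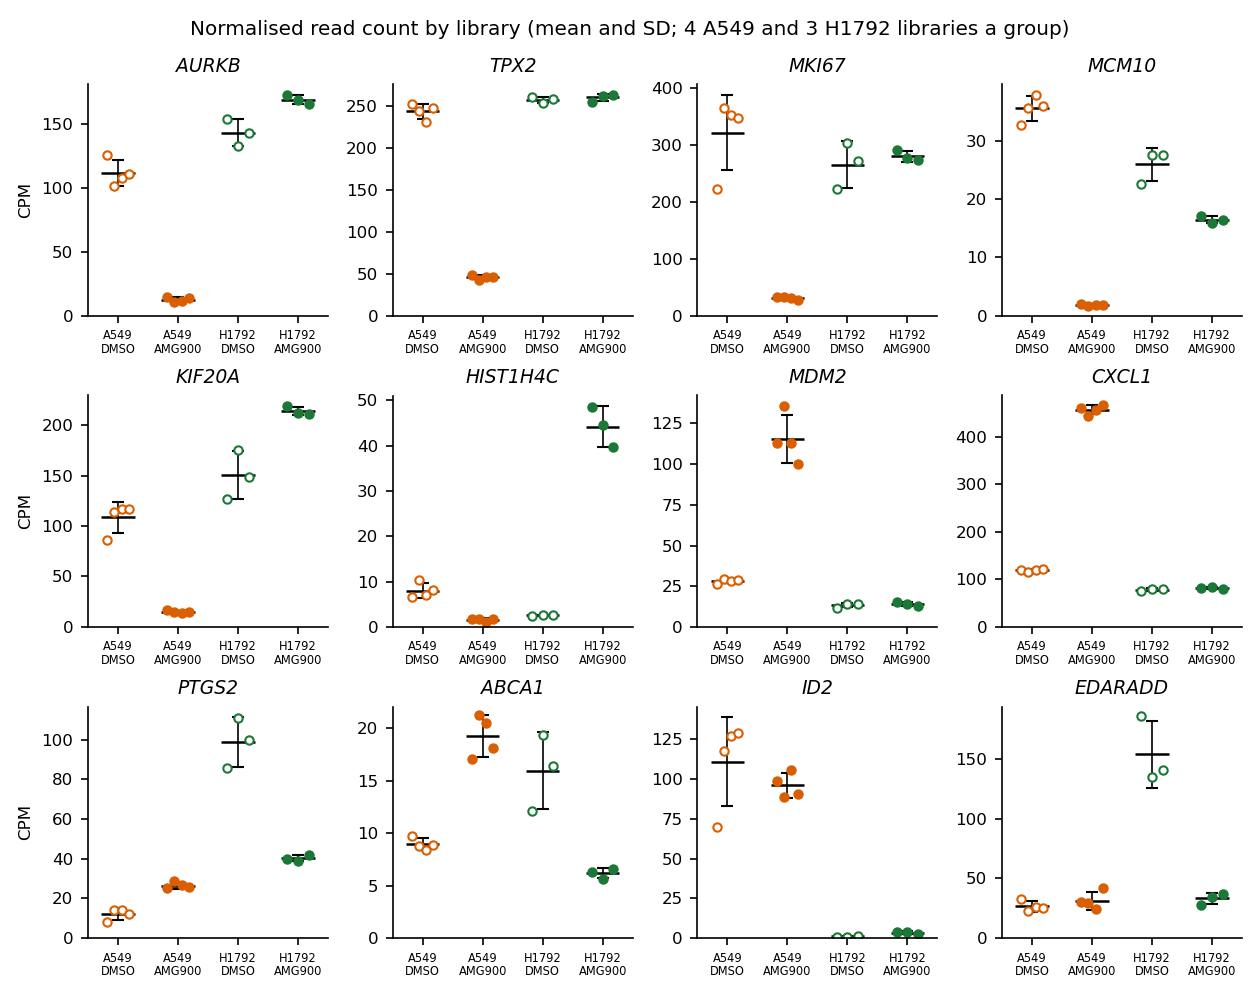
Normalised read count (CPM, y axis from 0) of 12 genes in each library, with open points for DMSO and filled points for AMG900, A549 in orange and H1792 in green; horizontal bars are means and error bars SD. *AURKB*, *TPX2* and *MKI67* fall in A549 alone, with *AURKB* slightly higher under AMG900 in H1792. *KIF20A* and *HIST1H4C* fall in A549 and rise in H1792, *PTGS2* and *ABCA1* do the reverse, and *ID2* and *EDARADD* move in H1792 alone.

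Promoters were searched for sequence elements known from the cell cycle. The windows of 300 bases around the gene starts (250 before and 50 after, RefSeq, GRCh38.p14) were at hand for 11549 of the 14769 genes. The cell cycle homology region (CHR, TTTGAA or TTCGAA on either strand), through which MuvB complexes act, was present in 28.1% of 398 promoters of genes downregulated in A549 only, against 11.1% of all promoters. CCAAT, the site of NF-Y, was present in 54% against 36.2%, and the E2F-like TTTNNCGC in 18.8% against 10.1%. In the 41 promoters of genes downregulated in A549 and upregulated in H1792 the shares were 12.2%, 43.9% and 7.32%. For the 208 promoters of genes downregulated in H1792 only they were 10.1%, 42.3% and 10.1%. The shares are a description and a match is not a proven site. None of these motifs contains another, but neighbouring matches can share bases. Shown here are 2 promoters with a CHR next to the start, 1 of a gene with opposite responses (*CDCA3*, chr12:6851237-6851536, minus strand) and 1 of a gene downregulated in A549 only (*KIF18B*, chr17:44947724-44948023, minus strand), both on GRCh38.p14, with CHR and CCAAT in capitals. The CHR begins 3 bases before the gene start in *CDCA3* and 2 bases after it in *KIF18B*, and CCAAT begins 37 bases before the start in *CDCA3* and 55 and 32 bases before it in *KIF18B*.

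CDCA3: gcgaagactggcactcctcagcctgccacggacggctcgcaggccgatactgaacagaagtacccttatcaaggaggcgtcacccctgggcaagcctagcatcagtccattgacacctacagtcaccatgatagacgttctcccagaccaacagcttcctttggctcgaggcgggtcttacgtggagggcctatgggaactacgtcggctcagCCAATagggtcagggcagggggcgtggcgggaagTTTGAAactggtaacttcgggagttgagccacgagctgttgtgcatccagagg

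KIF18B: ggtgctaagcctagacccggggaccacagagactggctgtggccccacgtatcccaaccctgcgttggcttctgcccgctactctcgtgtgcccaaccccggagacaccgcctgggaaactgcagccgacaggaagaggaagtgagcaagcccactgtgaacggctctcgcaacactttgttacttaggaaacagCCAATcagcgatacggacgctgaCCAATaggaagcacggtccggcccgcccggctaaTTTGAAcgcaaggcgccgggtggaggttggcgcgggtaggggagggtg

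Genes of DNA replication followed the same contrast with a clearer decrease in H1792. Of 61 members, 48 were called and all 48 had the higher value in H1792. In A549, 59 were downregulated (median -1.98), and in H1792, 22 were downregulated and 1 upregulated (median -0.25). *MCM10*, which loads at origins and is needed to start the helicase, had 32.6, 35.6, 37.8 and 36 CPM with DMSO and 2.07, 1.77, 1.79 and 1.86 CPM with AMG900 in A549, and 22.6, 27.6 and 27.6 CPM against 17.1, 15.9 and 16.5 CPM in H1792. The groups did not overlap in either line, and the decrease of 4.26 ± 0.14 in A549 was larger than that of 0.65 ± 0.10 in H1792 (log2 scale; difference 3.61 ± 0.17, edgeR adjusted p = 1.1e-12). *ORC1*, of the origin recognition complex, changed by -4.04 ± 0.17 and -0.63 ± 0.12. *DTL*, the adaptor that destroys the licensing factor CDT1 in S phase, fell by 3.66 ± 0.18 on the log2 scale in A549 and had -0.15 ± 0.14 in H1792 (difference 3.51 ± 0.23, edgeR adjusted p = 1.9e-10). The histone chaperone *ASF1B* had -3.28 ± 0.15 in A549 and 0.12 ± 0.13 in H1792.

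DNA repair, nucleotide supply, the cyclins and the E2F and DREAM factors moved the same way. Of 34 repair genes 20 were called, all with the higher value in H1792, with medians of -2.35 in A549 and -0.26 in H1792. The exonuclease gene *EXO1*, the helicase gene *BLM* and *XRCC2* were downregulated in A549 by 3.95 ± 0.24, 2.90 ± 0.25 and 3.18 ± 0.27 on the log2 scale, and none of these 3 passed the test in H1792 (log2 fold changes of -0.25, 0.21 and -0.09). Among 13 genes of dNTP supply, 6 were called higher and 1 lower in H1792, and here the same-direction class was the most frequent, with 4 of the 7. *RRM2*, the small subunit of ribonucleotide reductase, changed by -3.80 ± 0.09 in A549 and by -0.56 ± 0.08 in H1792. *RRM2B*, its p53-induced relative, was the exception: it stood at 0.21 ± 0.24 in A549 and fell by 1.75 ± 0.29 in H1792 (log2 scale). Of 19 cyclins, CDKs and CDC25 phosphatases 12 were called, all higher in H1792. The cyclin *CCNA2* was downregulated in both lines, from 27.3, 12.6, 15.1 and 15.2 CPM to 0.753, 0.568, 0.867 and 0.664 CPM in A549 and from 43.3, 36.9 and 41.7 CPM to 16.1, 16.1 and 16.7 CPM in H1792, and its groups did not overlap in either line. Of 6 CDK inhibitors 3 were called: *CDKN2C* was downregulated in both lines (-1.56 ± 0.11 and -0.56 ± 0.10), *CDKN3* in A549 only (-2.77 ± 0.17, against 0.27 ± 0.15), and *CDKN1A* is given with the p53 targets. *PKMYT1*, the kinase that holds CDK1 inactive, and *CDC25C*, the phosphatase that releases it, fell in A549 only, by 3.70 ± 0.14 and 3.05 ± 0.17 (log2 scale). Of 21 genes of the E2F, RB and DREAM list 10 were called, all higher in H1792. *E2F8* and *E2F2* had -4.69 ± 0.64 and -4.50 ± 0.27 in A549 and -0.49 ± 0.29 and -0.48 ± 0.14 in H1792. With AMG900 in A549 they had 1 to 8 and 2 to 11 counts a library, so the size of these decreases is uncertain. For *E2F2* the H1792 change was near the threshold (edgeR adjusted p = 0.011), and the gene counted as A549 only in 7 of 12 alternatives that leave out no library and as same direction in the other 5. *MYBL2*, which encodes B-MYB, passed in both lines, with -3.38 ± 0.09 and -0.33 ± 0.09.

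A small set of cell cycle genes went further and rose in H1792 while they fell in A549. *KIF20A* (chr5:137514408-137523412, GRCh37), a kinesin of the central spindle, had 85.8, 114, 117 and 117 CPM with DMSO and 16.6, 14.8, 13.8 and 14.9 CPM with AMG900 in A549, and 127, 175 and 149 CPM against 219, 212 and 211 CPM in H1792. The groups did not overlap in either line. Its log2 fold changes were -2.87 ± 0.11 and 0.51 ± 0.11 (difference 3.38 ± 0.15, edgeR adjusted p = 1.1e-12), and the opposite call held under all 27 alternatives. *UBE2C* and *UBE2S*, the ubiquitin-conjugating enzymes that work with the anaphase-promoting complex, had -2.80 ± 0.09 and -1.39 ± 0.10 in A549 against 0.37 ± 0.09 and 0.46 ± 0.11 in H1792. *TROAP*, *CDCA3* and the replication kinase regulator *DBF4B* had -2.45 ± 0.10, -2.39 ± 0.09 and -1.78 ± 0.11 in A549 against 0.47 ± 0.09, 0.34 ± 0.09 and 0.40 ± 0.11 in H1792. The rise of *CDCA3* and *DBF4B* in H1792 was close to the threshold, and each kept the opposite call in 9 of 13 alternatives that leave out no library. *UBE2C* turned to A549 only with total counts, and *UBE2S* and *TROAP* did so with a GC spline. Of 14 fits without 1 library, the opposite call held in 14 for *TROAP*, 10 for *UBE2C*, 9 for *UBE2S* and *DBF4B* and 8 for *CDCA3*.

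The largest difference among list members with counts in all groups belonged to a histone. *HIST1H4C* (chr6:26104161-26104565, GRCh37), a replication-dependent histone H4 gene, had 6.65, 10.3, 7.06 and 8.06 CPM with DMSO and 1.69, 1.7, 1.08 and 1.73 CPM with AMG900 in A549. In H1792 it had 2.31, 2.6 and 2.69 CPM with DMSO and 48.5, 44.6 and 39.6 CPM with AMG900. Neither line had an overlap between its groups, and the directions were opposite: -2.42 ± 0.20 in A549 and 4.13 ± 0.15 in H1792 (difference 6.55 ± 0.25, edgeR adjusted p = 4.9e-14). Of the 25 histone genes tested, 7 were upregulated and 0 downregulated in H1792, against 11% and 14% of all genes. In A549, 5 were upregulated and 1 downregulated, and the medians were 0.08 in A549 and 0.47 in H1792. The rest of the 25 did not share the opposite responses of *HIST1H4C*: 3 were called in all (12%, below the 14.8% of all genes). The others called were *HIST1H2BO* and *HIST1H2BC*, with 1.45 ± 0.29 and 1.24 ± 0.18 in H1792 and -0.86 ± 0.52 and 0.03 ± 0.27 in A549. Both of these rested on few counts in A549 and lost the call when H1792 was thinned to the depth of A549. Copies of histone genes are close to identical in sequence, so the assignment of reads among them is uncertain, and most of these transcripts end without a poly(A) tail.

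Tubulins stood between the classes. Of 14 genes, 8 were called higher and 1 lower in H1792, with medians of -0.52 in A549 and 0.11 in H1792. *TUBA1B* and *TUBA1C*, near-identical alpha-tubulin genes whose reads may be shared, fell by 1.64 ± 0.08 and 1.01 ± 0.06 in A549 (log2 scale) and had 0.09 ± 0.09 and 0.21 ± 0.07 in H1792, with *TUBA1C* opposite in 5 of 13 alternatives that leave out no library. *TUBB4B*, a beta-tubulin, had 651, 721, 761 and 767 CPM against 344, 343, 372 and 368 CPM with AMG900 in A549 and 937, 951 and 959 CPM against 1340, 1330 and 1280 CPM in H1792, with no overlap of groups and changes of -1.02 ± 0.06 and 0.47 ± 0.07. *TUBG1*, the gamma-tubulin that nucleates microtubules, and *TUBA4A* were opposite as well, with -0.45 ± 0.08 and -0.33 ± 0.08 in A549 and 0.57 ± 0.09 and 0.59 ± 0.09 in H1792. Splicing factors of the SR and hnRNP families were lower in A549 for 19 of 26 members and in H1792 for 8, and 11 of 26 were called, all higher in H1792. *HNRNPA2B1*, *HNRNPDL* and *HNRNPD* had -0.93 ± 0.06, -0.81 ± 0.08 and -0.90 ± 0.11 in A549 and -0.01 ± 0.07, 0.16 ± 0.09 and -0.18 ± 0.12 in H1792. For ribosome biogenesis 8 of 36 were called (22.2%, against 14.8% of all genes), all higher in H1792, with medians of -0.46 and -0.28. The transcription factor *MYC* was downregulated in both lines, by 1.48 ± 0.07 and 0.53 ± 0.07 on the log2 scale.

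Targets of p53 went the other way: they rose in A549 and as a group did not in H1792. Of 37 members, 25 were called and all 25 had the lower value in H1792, against 9.34% of all genes. In A549, 28 were upregulated and none of the 37 passed as downregulated, while in H1792, 6 were upregulated and 6 downregulated. The medians were 0.94 and 0.00. *MDM2*, the ubiquitin ligase of p53 and its own target, had 26.4, 29.5, 28.4 and 28.9 CPM with DMSO and 113, 136, 113 and 100 CPM with AMG900 in A549, but 11.9, 13.8 and 14.2 CPM against 15.6, 13.9 and 13.1 CPM in H1792, where the groups overlapped (log2 fold changes 2.02 ± 0.10 and 0.10 ± 0.11; difference -1.93 ± 0.14, edgeR adjusted p = 2.6e-09). *CDKN1A*, which encodes the CDK inhibitor p21, rose in both lines. It had 421, 475, 512 and 522 CPM with DMSO and 1680, 1700, 1650 and 1760 CPM with AMG900 in A549, and 47.5, 45.4 and 45.8 CPM against 71.3, 68.6 and 70.1 CPM in H1792. The increase was 1.81 ± 0.06 in A549 and 0.60 ± 0.07 in H1792, and the level in H1792 stayed under that of untreated A549 in every library. *ZMAT3* and *FDXR* rose in A549 only, by 1.58 ± 0.16 and 1.89 ± 0.14. *ACER2* rose by 1.96 ± 0.36 in A549 and was classed as A549 only. In H1792 it averaged 0.263 CPM with DMSO and 0.191 CPM with AMG900, too low to show that it did not respond there. Its call was lost with the replicate block and with H1792 thinned to the depth of A549, and its class held in 10 of 14 fits without 1 library. In H1792 4 targets fell alone, *RRM2B* among them, and *TRIAP1* was called in opposite directions (0.47 ± 0.14 and -0.69 ± 0.15), but as H1792 only in 6 of 13 alternatives that leave out no library. Of 16 genes of the BCL2 family, which decides on mitochondrial cell death, 5 were called, all lower in H1792. *BAX* and *BCL2L1*, a death effector and a survival gene, rose in A549 only (0.67 ± 0.07 and 1.06 ± 0.06), and the BH3-only genes *BBC3* and *BMF* rose in both lines, by 1.49 ± 0.10 and 1.69 ± 0.17 in A549 and by 0.51 ± 0.10 and 0.61 ± 0.15 in H1792.

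**Figure D3:**
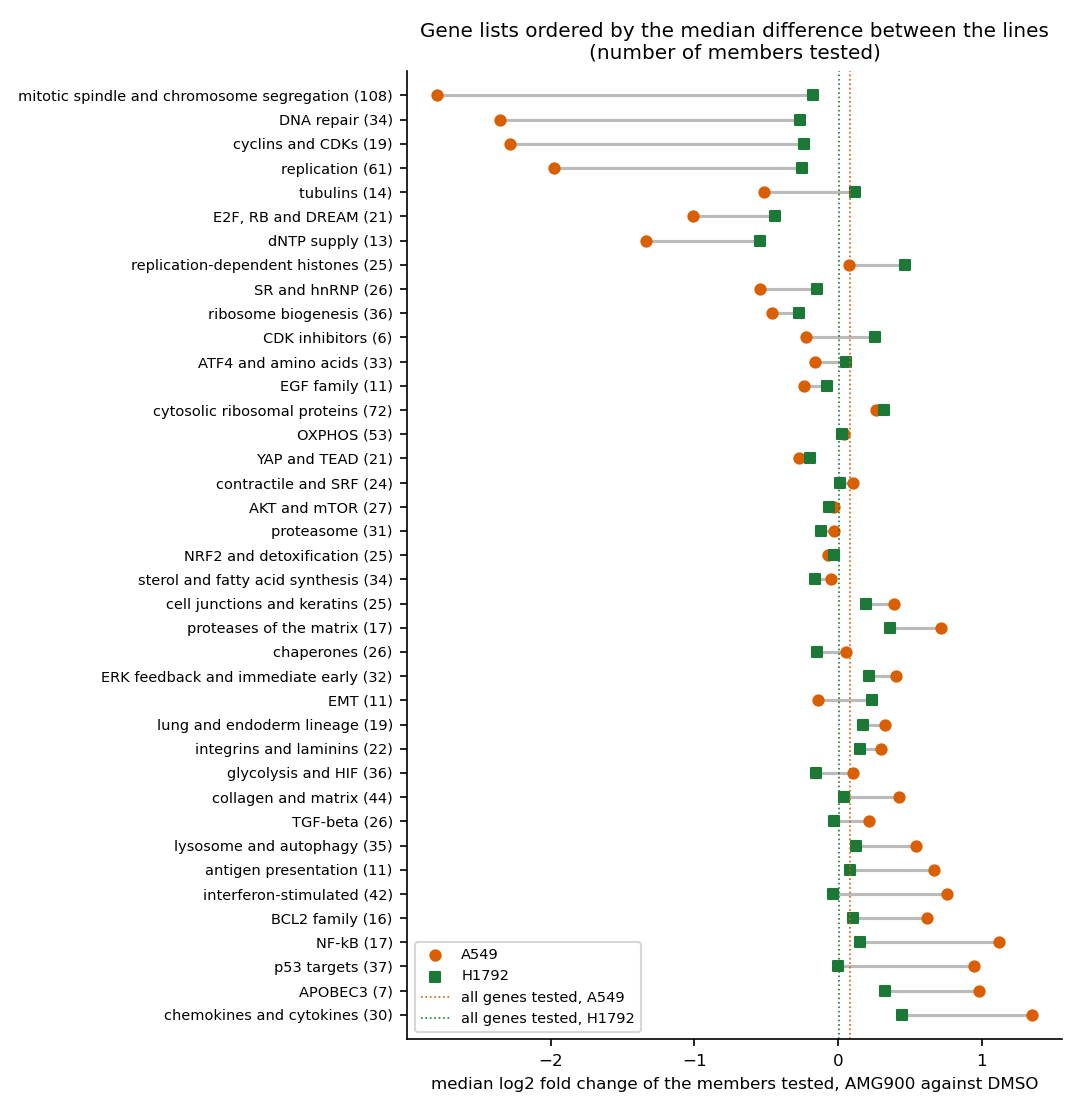
Median log2 fold change under AMG900 of the tested members of 39 gene lists in A549 (circles) and H1792 (squares), ordered by the median difference; dotted lines are the medians of all genes tested (0.083 in A549 and 0.008 in H1792). Mitotic, repair, cyclin and replication genes are far to the left in A549 and near the all-gene median in H1792, and NF-kB, p53 and cytokine genes lie to the right in A549.

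Inflammatory genes rose more in A549. Of 17 genes of the NF-kB pathway, 13 were called, all lower in H1792, with 15 upregulated in A549 and 3 upregulated and 1 downregulated in H1792 (medians 1.12 and 0.15). *SOD2*, *TNFAIP3* and *RELB*, a mitochondrial superoxide dismutase, a feedback inhibitor and a subunit of NF-kB, rose by 1.83 ± 0.05, 1.49 ± 0.07 and 1.34 ± 0.09 in A549 and had 0.07 ± 0.06, -0.03 ± 0.07 and -0.01 ± 0.09 in H1792. Among 30 chemokines and cytokines, 14 were called lower and 2 higher in H1792, but here both lines responded: 20 were upregulated in A549 and 14 in H1792, and 8 of the 16 called genes moved in the same direction. *CXCL1*, a chemokine for neutrophils, had 119, 115, 120 and 121 CPM with DMSO and 460, 444, 457 and 467 CPM with AMG900 in A549, against 75.8, 79.6 and 80.5 CPM and 81.8, 84.9 and 80 CPM in H1792. The A549 groups lay apart and the H1792 groups overlapped (1.94 ± 0.05 and 0.07 ± 0.06; difference -1.88 ± 0.08, edgeR adjusted p = 5.0e-13). *IL6* rose from 6.21, 6.37, 6.85 and 6.39 CPM to 32.7, 30.9, 35.5 and 31.7 CPM in A549, and stood at 97, 116 and 112 CPM with DMSO and 93.9, 94.4 and 94.1 CPM with AMG900 in H1792. Its level in every H1792 library was thus above that of every A549 library, with AMG900 or without. *CSF3*, the granulocyte growth factor, rose in both lines, by 4.12 ± 0.20 in A549 and by 1.77 ± 0.12 in H1792, and so did the small GTPase gene *RRAD* (3.34 ± 0.24 and 0.78 ± 0.13). *CXCL5* was called in opposite directions (1.42 ± 0.06 and -0.24 ± 0.07), but its H1792 change was slight, and the opposite call held in 8 of 13 alternatives that leave out no library. The kappaB-like GGNNTTTCC was present in 7.17% of 600 promoters of genes upregulated in A549 only, against 6.51% of all promoters, so the shares were close. It is shown, in capitals, in the promoter of *IL6* (chr7:22726950-22727249, plus strand, GRCh38.p14), where it begins 72 bases before the start.

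IL6: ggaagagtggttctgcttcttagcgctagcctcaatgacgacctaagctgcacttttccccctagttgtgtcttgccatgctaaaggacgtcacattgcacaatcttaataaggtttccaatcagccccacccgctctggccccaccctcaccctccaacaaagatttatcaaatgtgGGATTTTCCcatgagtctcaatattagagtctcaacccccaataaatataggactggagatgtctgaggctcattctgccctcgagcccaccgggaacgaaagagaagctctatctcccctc

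Among 42 interferon-stimulated genes, 12 were called lower and 1 higher in H1792, with 23 upregulated in A549 and 9 in H1792 (medians 0.76 and -0.04). The antiviral genes *MX1* and *ISG15* rose in A549 only, by 1.98 ± 0.23 and 1.77 ± 0.14, against 0.33 ± 0.17 and 0.28 ± 0.13 in H1792. *IRF7*, a transcription factor of the interferon response, rose in both lines (2.28 ± 0.18 and 0.80 ± 0.15). *STAT2*, which carries the interferon signal to DNA, was opposite: it had 25.7, 26.8, 26.8 and 30.7 CPM with DMSO and 60.4, 60, 54.1 and 54.2 CPM with AMG900 in A549, and 24.8, 27.2 and 24.9 CPM against 18.7, 21.2 and 20.7 CPM in H1792, with groups that did not overlap in either line (1.04 ± 0.09 and -0.34 ± 0.09). *STAT2* kept the opposite call in 10 of 13 alternatives that leave out no library and in 9 of 14 fits without 1 library. The membrane protein gene *IFITM1* was opposite too (1.33 ± 0.28 and -0.74 ± 0.15), at 0.774 to 3.92 CPM in A549 and 31.9 to 73 CPM in H1792. Among 11 genes of antigen presentation 2 were called (18.2%, near the 14.8% of all genes), *TAPBP* and *PSMB10*, both lower in H1792, and *TAPBP* kept its class in 6 of the 14 fits without 1 library. Of 7 genes of the APOBEC3 cytidine deaminases 3 were called: *APOBEC3B* fell by 2.56 ± 0.14 in A549 and had 0.32 ± 0.10 in H1792, while *APOBEC3C* and *APOBEC3F* rose in A549 (1.31 ± 0.10 and 1.09 ± 0.17). *APOBEC3B* was opposite and *APOBEC3C* same direction in 4 of 13 alternatives that leave out no library.

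Lysosomal and autophagy genes rose in A549 for 23 of 35 members and in H1792 for 6, and 16 were called lower and 1 higher in H1792, with medians of 0.54 and 0.12. The number called lower ran from 2 to 21 over the alternatives. The protease *CTSB* rose from 1010, 1100, 1160 and 1150 CPM to 2540, 2560, 2460 and 2550 CPM in A549, and from 309, 309 and 307 CPM to 352, 355 and 358 CPM in H1792. The groups did not overlap in either line, but the H1792 change, 0.20 ± 0.06, did not pass (adjusted p = 0.011, edgeR), against 1.19 ± 0.05 in A549, and it did pass in 6 of 13 alternatives that leave out no library. *GABARAPL1*, of the autophagosome, and *GRN*, progranulin, rose in A549 only (0.94 ± 0.08 and 1.05 ± 0.09), whereas *LAMP2*, a lysosomal membrane protein, fell in H1792 only, by 1.12 ± 0.11 on the log2 scale. The lipid exporters *ABCG1* and *ABCA1*, which pass cholesterol out of the cell, differed as well. *ABCG1* had 0.443, 1.12, 1.59 and 2.02 CPM with DMSO and 13.9, 14.8, 15 and 16 CPM with AMG900 in A549, which brought it near the 17, 18.6 and 15.6 CPM of untreated H1792, where AMG900 left 16.4, 16.9 and 16.6 CPM. Its change was 3.33 ± 0.21 in A549 and -0.04 ± 0.14 in H1792. *ABCA1* (chr9:107543287-107690436, GRCh37) had 9.75, 8.78, 8.36 and 8.87 CPM with DMSO and 17.1, 21.3, 20.5 and 18.1 CPM with AMG900 in A549, and 12.1, 19.4 and 16.4 CPM against 6.26, 5.64 and 6.59 CPM in H1792. No groups of a line overlapped, and the changes of 1.12 ± 0.15 and -1.37 ± 0.15 (difference -2.50 ± 0.21, edgeR adjusted p = 1.2e-08) were opposite under all 27 alternatives. *SREBF1*, a transcription factor of lipid synthesis, was opposite as well (0.71 ± 0.08 and -0.40 ± 0.09), but A549 only with the size factors of DESeq2 and with the replicate block. *FASN*, fatty acid synthase, had 0.40 ± 0.09 and -0.32 ± 0.10. The class of *FASN* held in 6 of 13 alternatives that leave out no library and was otherwise H1792 only, opposite or not called. Of 34 sterol and fatty acid genes 9 were called (26.5%, against 14.8% of all genes), 7 lower and 2 higher in H1792. The medians of -0.05 and -0.16 lay close together.

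Among 36 genes of glycolysis and HIF targets, 13 were called (36.1%, against 14.8% of all genes), 11 lower and 2 higher in H1792. The HIF targets made up 8 of the 11, out of 17 tested. Of 19 glycolysis genes, 3 were called lower and 2 higher. Over the alternatives the number called lower in the whole list ran from 3 to 17. *CA9*, carbonic anhydrase IX, was opposite (1.12 ± 0.17 and -0.47 ± 0.12). That call turned to A549 only with the size factors of DESeq2 and held in 9 of 14 fits without 1 library. *P4HA1*, a collagen prolyl hydroxylase, was downregulated in both lines and more in H1792 (-0.52 ± 0.13 and -1.63 ± 0.13), while *P4HA2* rose in A549 only (0.89 ± 0.07, against 0.05 ± 0.08). *LDHA*, lactate dehydrogenase, was downregulated in both lines and more in A549 (-1.34 ± 0.09 and -0.70 ± 0.11). The collagen lysyl hydroxylase *PLOD2* fell from 76, 73.6, 59.9 and 63.7 CPM to 45.1, 47, 43.3 and 36.4 CPM in A549 and from 17, 19.8 and 20.1 CPM to 8.24, 7.42 and 7.13 CPM in H1792. Its groups did not overlap, and the decrease was larger in H1792 (-0.66 ± 0.10 and -1.31 ± 0.12; difference -0.65 ± 0.15, edgeR adjusted p = 0.0034). The call was lost under the 3 other scalings in edgeR, where the difference was -0.57 (adjusted p of 0.011 to 0.0154), and in 3 of the 14 fits without 1 library.

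Genes of the matrix and of TGF-beta signalling were called lower in H1792 more often than higher, as were all genes (9.34% against 5.48%). Of 44 collagen and matrix genes, 12 (27.3%) were called, all lower in H1792, with medians of 0.43 in A549 and 0.04 in H1792. *COL4A5* and *COL4A6*, neighbouring genes for chains of basement membrane collagen, were both opposite, with 0.94 ± 0.08 and 0.33 ± 0.07 in A549 and -0.42 ± 0.09 and -0.34 ± 0.08 in H1792, and the fibrillin gene *FBN1* had 0.68 ± 0.12 and -0.54 ± 0.10. *COL4A6* was opposite in 8 of 13 alternatives that leave out no library, and otherwise passed in 1 line or was not called. *SPARC*, a matrix glycoprotein, rose in A549 only (1.56 ± 0.14, against 0.04 ± 0.09), at 2.84 to 12.1 CPM there and at 577 to 621 CPM in H1792. Of 22 integrins and laminins 8 were called, all lower in H1792, among them *ITGB3*, which fell in H1792 only (-0.85 ± 0.13, against 0.23 ± 0.12). Of 26 TGF-beta genes 8 were called lower and 1 higher in H1792. The receptor gene *TGFBR1* had 25.2, 24.8 and 24.4 CPM with DMSO and 12, 11.3 and 12.1 CPM with AMG900 in H1792, and 29.7, 31.3, 29.6 and 34 CPM against 36.2, 40.2, 33.3 and 37.6 CPM in A549. The H1792 groups lay apart (-1.07 ± 0.10), and the A549 groups overlapped (0.23 ± 0.09; difference -1.31 ± 0.13, edgeR adjusted p = 1.5e-07). *GREM1*, an antagonist of BMP ligands, fell in H1792 only (-1.20 ± 0.14), and *ID2*, a target of BMP signals and an inhibitor of basic helix-loop-helix factors, was the 1 called higher: it had 0.768, 0.629 and 1.35 CPM with DMSO and 3.55, 4.04 and 2.51 CPM with AMG900 in H1792, against 69.6 to 129 CPM in all A549 libraries. *LTBP1*, which stores TGF-beta in the matrix, had 0.65 ± 0.10 and -0.37 ± 0.10. Its opposite call held in 10 of 13 alternatives that leave out no library and in 9 of 14 fits without 1 library.

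Of the 11 genes of epithelial-mesenchymal transition tested, 4 were called (36.4%, against 14.8% of all genes), 3 higher and 1 lower in H1792. The median difference of the list, -0.23, changed sign in 3 of the 27 alternatives. The transcription factor *SNAI1* was opposite, with 8.42, 10.4, 11.2 and 10.6 CPM with DMSO and 4.61, 6.46, 5.1 and 5.11 CPM with AMG900 in A549, and 34.7, 33.7 and 33.5 CPM against 48, 45.5 and 43.4 CPM in H1792, and no overlap of groups in either line (-0.96 ± 0.12 and 0.43 ± 0.10; difference 1.39 ± 0.16, edgeR adjusted p = 1.6e-06). The opposite call of *SNAI1* held in 11 of 13 alternatives that leave out no library and in 9 of 14 fits without 1 library. *SNAI2* was downregulated in A549 (-0.66 ± 0.19) and had 0.50 ± 0.22 in H1792, a difference of 1.16 ± 0.29 that lost the call in 10 of the 14 fits without 1 library. *VIM*, vimentin, was called as higher in H1792 (0.32 ± 0.07, against -0.14 ± 0.06), and its class turned with the scaling: it was H1792 only with the TMM factors used here, A549 only with total counts or a GC spline, and opposite with TMM factors within each line. *CDH2*, N-cadherin, fell in both lines and more in H1792 (-0.28 ± 0.07 in A549 and -0.78 ± 0.07 in H1792). It counted as same direction in 8 of 13 alternatives that leave out no library and as H1792 only in 4. Its level was higher in H1792, at 276 to 505 CPM against 74.9 to 104 CPM in A549. Of 21 targets of YAP and TEAD 7 were called (33.3%, against 14.8% of all genes), 3 higher and 4 lower, in no common direction. The receptor kinase *AXL* and the stress gene *GADD45B* were downregulated in A549 and upregulated in H1792 (-0.54 ± 0.06 and 0.35 ± 0.06 for *AXL*, -0.43 ± 0.08 and 0.52 ± 0.09 for *GADD45B*). *ANKRD1* fell in H1792 (-0.65 ± 0.09, against 0.29 ± 0.09 in A549, as opposite in 5 of 13 alternatives that leave out no library). *CTGF* was downregulated in both (-0.42 ± 0.10 and -1.15 ± 0.10).

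Counting all lists, 33 named genes had opposite responses, 14 down in A549 and up in H1792 and 19 the reverse. Besides those above, *PTGS2*, cyclooxygenase 2, had 7.98, 14.1, 14.2 and 12.2 CPM with DMSO and 25, 28.7, 26.5 and 25.5 CPM with AMG900 in A549, and 85.6, 111 and 99.8 CPM against 39.6, 39 and 41.8 CPM in H1792, with no overlap of groups (1.07 ± 0.12 and -1.30 ± 0.12; difference -2.37 ± 0.17, edgeR adjusted p = 9.6e-10). *TFPI*, the inhibitor of the tissue factor pathway of coagulation, had 1.63 ± 0.15 and -0.66 ± 0.14, and *SPRY1*, a feedback inhibitor of receptor kinase signals, 2.07 ± 0.37 and -0.62 ± 0.16. The A549 value of *SPRY1* rested on 5 to 8 counts a library with DMSO. Its opposite call turned to A549 only with the size factors of DESeq2 and with H1792 thinned to the depth of A549, and held in 9 of 14 fits without 1 library. The transcription factor *SOX4* had 0.95 ± 0.06 and -0.53 ± 0.07. The opposite call was less stable than the difference itself, since it needs 2 changes to pass: of the 132 genes with opposite responses 64 stayed opposite under each of 4 other scalings or tests, and of the 33 named ones 17 did. *KIF20A*, *HIST1H4C*, *ABCA1*, *PTGS2*, *IFITM1*, *FBN1*, *GADD45B*, *AXL* and *SOX4* were the 9 that kept it under every alternative other than a minimum of 2-fold.

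**Figure D4:**
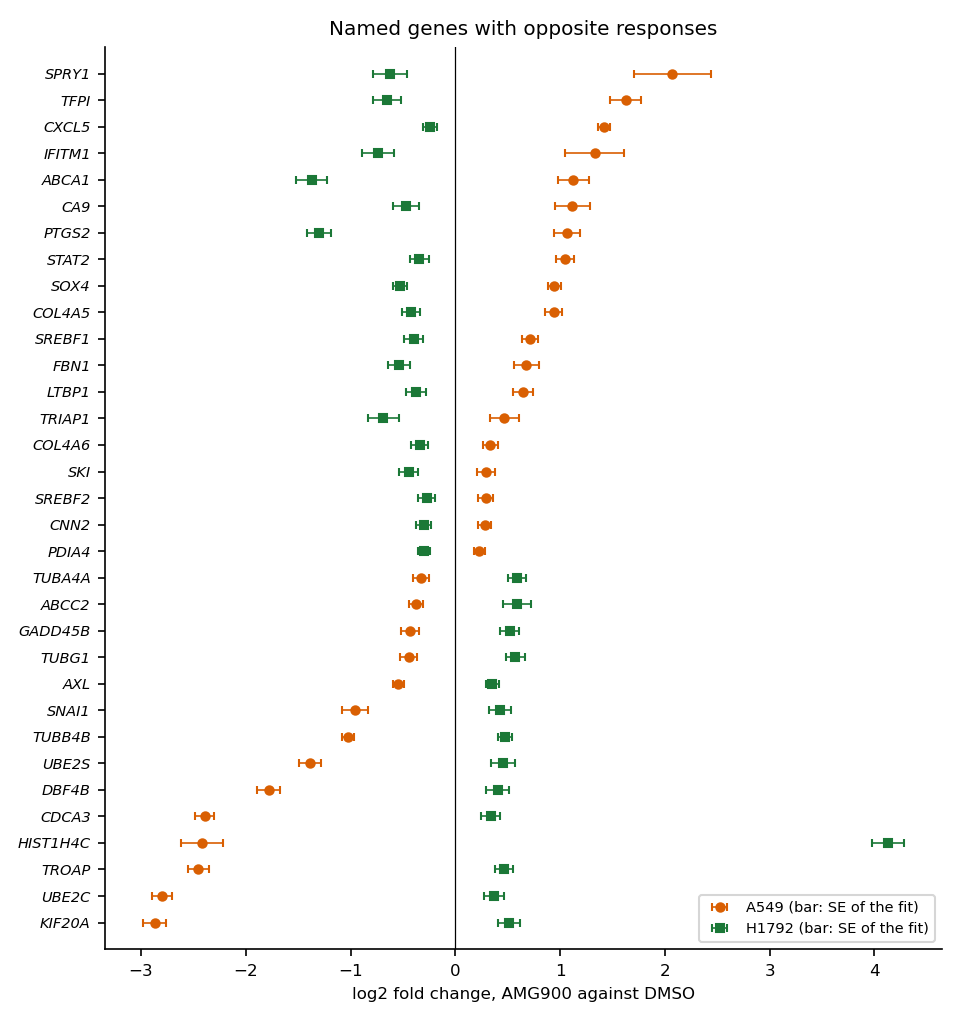
Log2 fold change under AMG900 (x axis) of the 33 named genes with opposite responses, in A549 (circles) and H1792 (squares); bars are standard errors of the fit. The changes in A549 span -2.87 (*KIF20A*) to 2.07 (*SPRY1*, at 5 to 8 counts a library with DMSO). Those in H1792 stay between -1.37 and 0.59 except for *HIST1H4C* at 4.13.

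Responses found in H1792 alone were fewer. Genes are named here from those that averaged 100 or more counts a library in both lines and no overlap between the H1792 groups. *EDARADD*, an adaptor of a death-domain receptor of skin appendages, had 186, 135 and 141 CPM with DMSO and 28, 34.5 and 37 CPM with AMG900 in H1792, and 32.8, 22.4, 25.7 and 25.4 CPM against 30.4, 29.1, 23.9 and 41.5 CPM in A549, where the groups overlapped (-2.21 ± 0.17 and 0.26 ± 0.17; difference -2.48 ± 0.24, edgeR adjusted p = 8.6e-07). The others of the 4 with the largest difference in this direction were the pseudogenes *ACTG1P20*, *ANKRD19P* and *RPL19P12*, with -3.02 ± 0.30, -1.92 ± 0.40 and -1.67 ± 0.27, and their values are uncertain because they share sequence with their parent genes. *ANKRD19P* kept the H1792-only call in 7 of 13 alternatives that leave out no library and in 3 of 14 that leave out 1. In the other direction they were *ID2*, *NPIPA1*, a member of a family of near-identical copies and thus uncertain, *PPP1R14A*, an inhibitor of myosin phosphatase, and *TMEM184A*, with 1.81 ± 0.30, 1.14 ± 0.23 and 1.04 ± 0.16 for the last 3. *TMEM184A* was opposite in 4 of 13 alternatives that leave out no library. Of 72 cytosolic ribosomal protein genes, 33 were upregulated in A549 and 36 in H1792, and 9 were called (12.5%, below the 14.8% of all genes), with 0 to 16 higher and 0 to 9 lower over the alternatives. *RPS26* was one of these (0.81 ± 0.08 in H1792, against -0.02 ± 0.07). *KRT81*, a keratin of hair, rose in both lines, more in H1792 (0.36 ± 0.08 and 1.32 ± 0.11), at 3.29 to 9.19 CPM there and 4170 to 6720 CPM in A549.

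Several lists had about as many called members as genes in general, or fewer. Of 53 subunits of oxidative phosphorylation, 5 were called (3 higher, 2 lower), of 31 proteasome subunits 2, of 27 members of the AKT and mTOR list 1, of 33 ATF4 and amino acid genes 4, of 26 chaperones 4 and of 25 genes of cell junctions and keratins 3, from 3.7% to 15.4% of the members against 14.8% of all genes. Within these lists the roles differed: none of the 15 tight junction genes and none of the 10 cytosolic chaperones was called, but 4 of 16 chaperones of the ER and mitochondria (25%, all lower in H1792) and 3 of 10 keratins (30%) were. A missing call does not show equal responses, but the median differences of these lists, from -0.21 to 0.06, lay near the -0.10 of all genes.

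**Figure D5:**
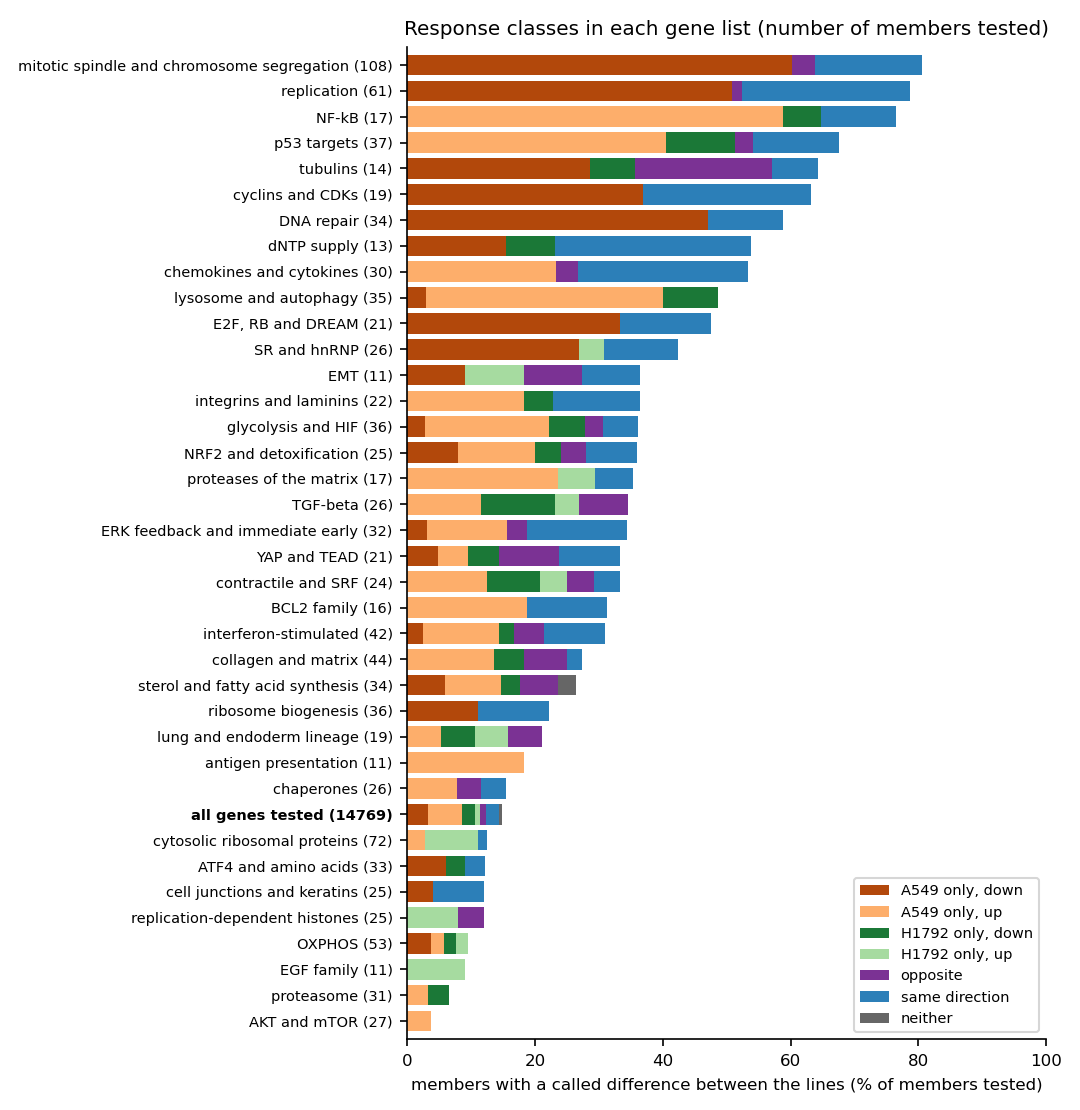
Share of the tested members of each list (x axis, % of members) that fell in each response class, for the 37 lists with 10 or more members and, in bold, for all genes tested. The mitotic and replication lists are filled mainly by genes downregulated in A549 only, NF-kB and p53 targets by genes upregulated in A549 only, and tubulins have the longest opposite segment.

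GC content, which the classes were not chosen on, differed between them. The transcripts of the 782 genes upregulated in A549 only had a median GC content of 56.2%, against 49.1% for all genes, and those of the 294 genes downregulated in H1792 only 43.8%. Across genes, the change under AMG900 rose with GC content in A549 and in H1792 (Spearman's rho of 0.46 and 0.469 over 14227 genes, which are not independent and share the libraries), while the difference between the lines hardly did (-0.0766). With a spline of GC content removed from every library, 2659 genes were called, 870 of the 1264 A549-only genes stayed in that class, and 66 of the 132 opposite ones did. Its part in the classes was not tested further.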

How the data were processed

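RNA was sequenced from 14 libraries. The authors deposited raw read counts per gene symbol, 1 table per line, and per the labels STAR, HTSeq and hg19/GRCh37 were used, with versions and counting options not given in the sources used here. The tables were joined on symbol, which left out 28 date-named entries of the H1792 table (0.101 to 0.117% of its libraries). Counts were filtered with filterByExpr, scaled with TMM over all libraries and fitted with edgeR 4.0.16 (R 4.3.3, limma 3.58.1) as 4 group means, with robust quasi-likelihood tests and Benjamini-Hochberg adjustment over all 14769 genes (FDR threshold 0.01). CPM uses TMM library sizes. The study's own test, DESeq2 (1.42.0) in each line, guided the alternative test of the interaction. Other alternatives were scaling, filters, a replicate block, a GC spline, thinned H1792 counts, per-line fits, thresholds and leaving out each library. The scripts were tested on simulated data.

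A549-only, H1792-only, opposite and same-direction genes were called for the interaction and, respectively, in 1 or both lines. Named genes were the 4 with the largest difference per class and direction (2 for same direction) that averaged 100 or more counts a library in both lines and no overlap of groups in the responding line, up to 4 called members per list, and a set of preselected genes and opposite list members. Members and lists were chosen with earlier results of these data known.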

Additional observations from a re-analysis of the deposited data

Results flagged for a closer look

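The lines differed for 2190 genes, and 132 of these had opposite responses, by the interaction test itself. The opposite genes with the largest differences (H1792 minus A549, log2 scale) were *KIF20A* with 3.38, *UBE2C* with 3.17, *TROAP* with 2.92 and *CDCA3* with 2.73 in one direction. In the other direction they were *ABCA1* with -2.50, *PTGS2* with -2.37, *TFPI* with -2.28 and *CXCL5* with -1.66, all with an average of 100 or more counts a library in both lines. *HIST1H4C*, at fewer counts, had 6.55.

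In the groups of 4 A549 libraries, 1 library lay far from the rest of its group in 21 of 246 groups (8.54%), where chance gives about 1 in 20. The groups come from 123 named genes in the same 8 libraries and are not independent, so this share is a rough guide. In 12 of the 21 the library apart was A549 DMSO replicate 1. That library was the lowest for *MKI67* (223 CPM), *KIF20A* (85.8 CPM), *ID2* (69.6 CPM), *ORC1* (19.5 CPM), *TUBA1B* (1660 CPM), *GABARAPL1* (27.3 CPM), *ITGB3* (11.7 CPM) and *NPIPA1* (3.32 CPM). It was the highest for *UBE2S* (624 CPM), *HNRNPD* (233 CPM), *FDXR* (145 CPM) and *TRIAP1* (29 CPM). Among the other DMSO libraries, replicate 3 was lowest for *XRCC2* (4.4 CPM) and *CDKN2C* (17.8 CPM), replicate 2 lowest for *ACER2* (0.516 CPM) and replicate 4 highest for *MMP2* (45.3 CPM). With AMG900, replicate 3 was lowest for *HIST1H4C* (1.08 CPM) and *CTSB* (2460 CPM), replicate 2 for *MYBL2* (12.6 CPM) and *CA9* (5.68 CPM) and replicate 4 for *ABCC2* (229 CPM). Without A549 DMSO replicate 1 the number of genes called rose to 3086.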

How the results depend on the processing

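No named gene's difference changed direction under any alternative. The genes were named for a called difference, most of them for a large one, so this stability was partly fixed by the choice. Changing the FDR threshold, setting a minimum fold or fitting each line for the classes reuses the same difference, so its direction could not change there. At FDR 0.05 and with per-line fits, all 179 kept the call by construction. Over 179 genes and 27 alternatives, 4482 values stayed on the same side of the threshold and 323 no longer passed it. The counts moved more. With DESeq2, 1416 genes were higher in H1792, 223 opposite and 522 in the same direction. With a GC spline 253 were opposite. At FDR 0.05, 3602 were called (1309 higher, 2293 lower), with 770 in H1792 only, 334 opposite and 709 in the same direction. With a minimum of 2-fold, 921 were called (397 higher, 524 lower), with 531 in A549 only, 185 in H1792 only, 72 opposite and 112 in the same direction.

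Whether same-numbered DMSO and AMG900 libraries were set up together is not stated. Correlations between their deviations from the group means ran from -0.0615 to 0.0417, but with 3 or 4 libraries a group these cannot show whether they were paired. With the replicate block 1599 genes were called, 274 in H1792 only and 80 opposite. Leaving out each library in turn gave 237 to 695 genes in H1792 only, 66 to 243 opposite and 174 to 499 in the same direction. The highest values came without A549 DMSO replicate 1 and the lowest without H1792 AMG900 replicate 1. The cause was not tested. With H1792 thinned to the depth of A549, 1866 genes were called.

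Counts of called list members moved as well. Over the 27 alternatives, the number higher in H1792 ran from 71 to 93 for mitosis, 44 to 51 for replication, 14 to 25 for DNA repair, 0 to 13 for SR and hnRNP and 0 to 13 for ribosome biogenesis. The number lower in H1792 ran from 16 to 29 for p53 targets, 8 to 14 for NF-kB, 10 to 14 for chemokines and cytokines, 6 to 16 for interferon-stimulated genes, 3 to 17 for glycolysis and HIF, 5 to 17 for collagen and matrix, 5 to 12 for TGF-beta, 1 to 8 for integrins and laminins, 1 to 8 for the BCL2 family and 1 to 10 for sterol and fatty acid synthesis.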

Other observations

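Further gene lists are given with the share of their members called, to be read against 14.8% of all genes. Of 17 proteases of the matrix and their inhibitors, 5 were called lower and 1 higher in H1792 (35.3% called). The gelatinase *MMP2* rose in A549 only, from 38.3, 38.9, 38.5 and 45.3 CPM to 75.1, 74.6, 83.8 and 92.1 CPM, while H1792 had 1170, 1190 and 1180 CPM with DMSO and 1350, 1290 and 1270 CPM with AMG900 (log2 fold changes of 1.01 ± 0.07 and 0.15 ± 0.08). The protease inhibitor *SERPINE2* rose in A549 only too (1.17 ± 0.07, against -0.12 ± 0.08). Of 24 contractile and SRF genes 8 were called (33.3%). *ACTA2*, smooth muscle actin, led them with 1.93 ± 0.06 in A549 and 0.23 ± 0.07 in H1792. It counted as same direction in 4 of 13 alternatives that leave out no library.

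Of 25 genes of NRF2 and detoxification 9 were called (36%), 4 higher and 5 lower in H1792. The transporter *ABCC2* was opposite (-0.38 ± 0.07 in A549 and 0.59 ± 0.14 in H1792), at 229 to 352 CPM in A549 and 1.07 to 1.9 CPM in H1792, but with H1792 thinned to the depth of A549 the difference of *ABCC2* went from 0.96 to 0.31 and was not called (edgeR adjusted p = 0.468). Of 32 genes of ERK feedback and immediate early response 11 were called (34.4%), 2 higher and 9 lower in H1792. Among them was *MAFF*, which rose in both lines (1.46 ± 0.11 and 0.41 ± 0.09). Of 11 EGF family genes *NRG1* alone was called (9.09%, below the 14.8% of all genes), as it rose in H1792 only (0.47 ± 0.08, against -0.04 ± 0.07). Of 19 genes of lung and endoderm lineage 4 were called (21.1%, not far above the 14.8% of all genes). Among them was *GATA6* (-0.40 ± 0.09 in H1792, against 0.21 ± 0.14). Its call was lost under all 3 other scalings in edgeR, with the replicate block and in 11 of the 14 fits without 1 library.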
